A study of Mus musculus with 4 samples.

Results

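The genes described here encode the proteins of the cytosolic ribosome, measured in sorted mouse bone marrow cells. Members were taken by symbol, as Rpl or Rps followed by a number together with Rplp0, Rplp1, Rplp2 and Rpsa, without S6 kinases, pseudogenes and copies whose symbols end in l or l1. Each gene was represented by the brightest probe set that carried its symbol alone. This gave 60 of 22180 genes. Of these, 58 are ribosomal proteins, 23 of the small subunit and 35 of the large subunit, and the other 2, Rps19bp1 and Rps23rg1, share the spelling but not the ribosome. A reference list of 77 cytosolic ribosomal protein symbols left 19 without a member, among them Rps2, Rpl12 and Rpl23. For 12 of the 19, the platform annotation listed only probe sets that also carried another symbol.

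RNA was hybridised to 4 Affymetrix Mouse Gene 2.0 ST arrays, 1 for each of 4 genotypes: wild type (WT), Fancd2KO, Foxo3aKO and the double knockout (DKO). Fancd2 acts at the core of the Fanconi anaemia pathway of DNA crosslink repair, and Foxo3a is a forkhead transcription factor known for its role in stem cell quiescence. All mice were 2 months old, and the cells were marrow cells lacking lineage markers and CD34 and carrying c-Kit and Sca-1, which the labels also name SLAM cells. The knockout alleles, any Cre, and the number of mice or cells behind an array are not given in the sources used here. With 1 array per genotype there was no replicate, so no test or p-value is given, and every difference describes a pair of arrays. Values were log2 signals, so that a difference of 1 is 2-fold.

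A ribosome holds a small subunit, which reads the mRNA, and a large subunit, which joins the amino acids. Its proteins are made in matched amounts, and in mammals most of their mRNAs begin with a run of pyrimidines, the terminal oligopyrimidine or TOP motif, through which mTOR and Larp1 control their translation. Blood-forming cells are known to be sensitive to ribosomal protein dose, since loss of a single copy of several of these genes causes Diamond-Blackfan anaemia, and haematopoietic stem cells make protein at a low rate. The array measures mRNA, not its translation.

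The start sites of the genes are shown because they carry the feature these genes are known for. RefSeq's promoter table for build GRCm38.p6 held an entry for 45 of the 58 ribosomal protein genes. A run of at least 6 pyrimidines that reached within 5 bases of the annotated start was present in 21 of the 45, which is 46.7%, and in 23.1% of 17491 protein-coding genes. The lines below give the genomic strand of the transcript from 10 bases before the start to 20 bases into the transcript, with the pyrimidine run in capitals where it held at least 6 bases.
Rpl15 (chr14:18270967-18270996, minus strand): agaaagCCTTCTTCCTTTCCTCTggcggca
Rpl35 (chr2:39005112-39005141, minus strand): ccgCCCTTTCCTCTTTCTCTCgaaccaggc
Rps24 (chr14:24490668-24490697, plus strand): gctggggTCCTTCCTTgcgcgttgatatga
Rps6 (chr4:86857348-86857377, minus strand): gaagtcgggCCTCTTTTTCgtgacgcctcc
Rpl28 (chr7:4792955-4792984, plus strand): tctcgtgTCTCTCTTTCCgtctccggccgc
Rpl38 (chr11:114668570-114668599, plus strand): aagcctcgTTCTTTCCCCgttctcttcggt
Rplp0 (chr5:115559457-115559486, plus strand): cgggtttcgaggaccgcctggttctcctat
The run was 17 bases long in Rpl15 and 18 in Rpl35. In Rplp0 the longest run at the annotated start was 4 bases, and the missing capitals say only that these letters are not at this start.

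A shared element was also present upstream of the start. The letters CCGGAA, the core that ETS family factors such as Gabpa bind, were found on either strand of the 300 bases from 250 before to 50 after the start in 27 of the 45 genes, 60%, and in 20.9% of protein-coding genes. The lines below give the 60 bases before the start, with this core in capitals on either strand, for genes that hold it close to the start.
Rpl27 (chr11:101442185-101442244, plus strand): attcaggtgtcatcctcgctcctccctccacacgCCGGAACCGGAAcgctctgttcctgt
Rps7 (chr12:28635954-28636013, minus strand): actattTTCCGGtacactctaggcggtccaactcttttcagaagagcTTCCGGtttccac
Rpl38 (chr11:114668520-114668579, plus strand): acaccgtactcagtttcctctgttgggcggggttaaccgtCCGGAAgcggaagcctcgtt
Rps3a1 (chr3:86142669-86142728, minus strand): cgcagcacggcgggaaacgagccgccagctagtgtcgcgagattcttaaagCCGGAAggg
The E-box CACGTG, bound by Myc and its partners, was found in 4 of the 45, 8.89%, and in 8.91% of protein-coding genes. The forkhead core TGTTTAC, on either strand, was found in 1 of the 45, Rpl41, and in 3.45% of protein-coding genes. The core AAGATGG, bound by YY1, was found in 6 of the 45 and in 7.18% of protein-coding genes. The letters TATAAA, read on the transcript's strand in the 50 bases before the start, were found in 0 of the 45 and in 3.81% of protein-coding genes.

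The 58 ribosomal proteins fell into probe sets with strong signal and probe sets with weak signal, and the classes behaved differently across the arrays. For 35 genes the probe set averaged at least 10 log2 over the arrays, and these are called bright here. On the WT array the bright probe sets lay between 9.96 and 12.89, with a median of 11.87. The other 23 probe sets, called dim, lay between 3.61 and 9.18, with a median of 6.52. A floor of 5.51 log2, the median over all genes and arrays, was passed by 56 of the 60 members on at least 1 array, and Rpl27a, Rps15, Rps23rg1 and Rps29 stayed under it on every array. A dim probe set does not say that its gene is weakly expressed. For Rpl26, Rpl27a, Rpl30, Rpl34, Rps16 and Rps27, another probe set that listed several symbols averaged 11.8 to 12.7, while the member's own probe set averaged 4.65 to 6.60. Probe sets differ in their response to RNA, so no gene's level is set against another's. Ribosomal proteins have many processed pseudogenes, and for Rpl23a and Rps19 different probe sets gave values within 0.01 of each other on every array, so single values can include copies.

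Most ribosomal protein genes had slightly lower signal on the Foxo3aKO array than on the WT array. Of the 60 members 51 were lower and 9 higher, where 55.4% of the 12041 genes above the floor were lower. The median difference was -0.16, against -0.04 over those genes. No member reached 2-fold, which 3.11% of genes did, and 10 were lower by 0.32 log2 or more, which 21.5% of genes were. Another 3 were as much higher, which 15.3% of genes were. Members were thus more often on the lower side than genes at large, by small amounts. Both subunits showed it, with 20 of 23 small subunit genes lower at a median of -0.15 and 30 of 35 large subunit genes lower at a median of -0.17. After the arrays were quantile normalised again, these counts were 17 and 28.

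Among the bright genes 32 of 35 were lower on the Foxo3aKO array, with a median of -0.11. Of the 418 genes with a mean of at least 10 log2, 54.1% were lower, with a median of -0.04. With that normalisation 27 of the 35 were lower with a median of -0.06, against 213 of 418 and -0.01. Bright probe sets that listed several symbols, left out of the members, showed the same side, with 20 of 22 lower and a median of -0.10. Taking the best bright probe set of either kind for each gene, 45 of 49 genes were lower, at a median of -0.11.

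**Figure D1:**
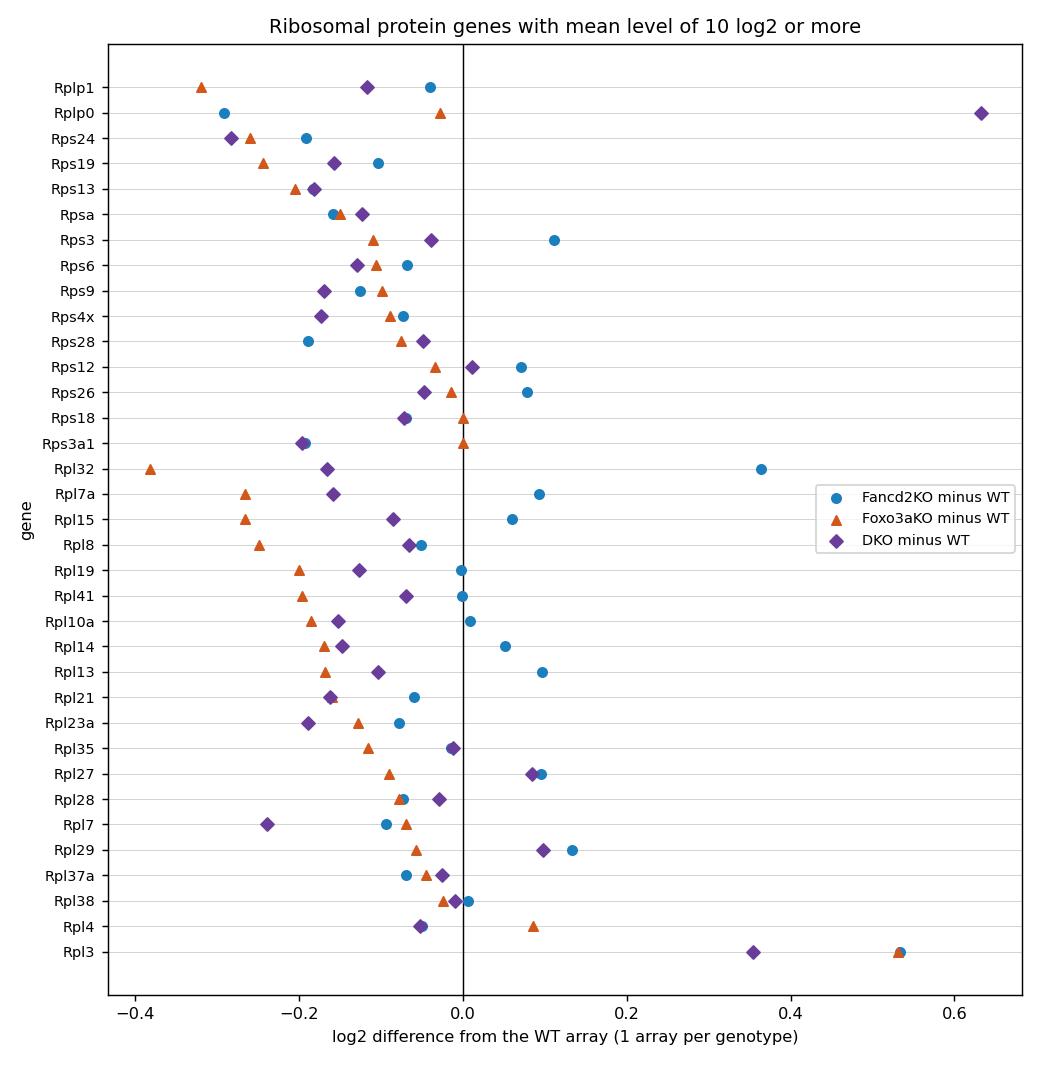
Log2 difference of Fancd2KO (circles), Foxo3aKO (triangles) and DKO (diamonds) from the WT array for the 35 bright ribosomal protein genes, grouped from top to bottom as stalk, small subunit and large subunit, with 1 array per genotype and no error bars. The Foxo3aKO triangles lie left of 0 for 32 of 35 genes, and Rpl3 and Rplp0 stand apart from the rest.

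Within the small subunit, Rps24, a protein needed to process the precursor of the small subunit's RNA, read 11.78 on the WT array, 11.59 on Fancd2KO, 11.52 on Foxo3aKO and 11.50 on DKO. Its Foxo3aKO difference was -0.26, or -16.5% in linear signal, and all knockout arrays lay below WT. Other probe sets of Rps24, both dimmer, differed on Foxo3aKO by 0.02 and -0.77 and on DKO by -0.32 and 0.11, so its probe sets disagreed on the size and the array. Rps19, the gene most often altered in Diamond-Blackfan anaemia, read 11.78 on WT, 11.68 on Fancd2KO, 11.54 on Foxo3aKO and 11.62 on DKO. The WT array was again the highest, and the Foxo3aKO difference was -0.24. Rps13 read 11.34 on WT and 11.16, 11.14 and 11.16 on Fancd2KO, Foxo3aKO and DKO, so the knockout arrays were nearly level with each other and about 0.2 below WT.

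Rpsa, the laminin receptor precursor that sits where mRNA leaves the small subunit, showed a similar order, at 11.46 on WT, 11.31 on Fancd2KO, 11.31 on Foxo3aKO and 11.34 on DKO. A second bright probe set of Rpsa, averaging 10.57, gave -0.15, -0.29 and 0.11 for the knockouts, so there DKO was the highest array. Rps6, the protein phosphorylated by S6 kinase downstream of mTOR, read 12.40 on WT, 12.33 on Fancd2KO, 12.29 on Foxo3aKO and 12.27 on DKO. Its whole range over the arrays was 0.13, with WT the highest. Rps3a1 differed from this order, with 11.72 on WT and Foxo3aKO and 11.53 and 11.52 on Fancd2KO and DKO. Its signal was therefore lower on the arrays labelled for Fancd2 loss, at -12.5% and -12.7% in linear signal. Rps18 gave 12.89 on WT and on Foxo3aKO and 12.82 on Fancd2KO and DKO, the same pairing at a smaller size. With quantile normalisation this pairing of Rps18 was lost, with Fancd2KO level with WT and DKO 0.04 above it.

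In the large subunit, Rpl32 showed the lowest Foxo3aKO difference of the bright genes. It read 12.03 on WT, 12.39 on Fancd2KO, 11.64 on Foxo3aKO and 11.86 on DKO. The Fancd2KO array was thus the highest and Foxo3aKO the lowest, 0.75 apart, and the differences from WT were 0.36 and -0.38. Rpl32 had a single probe set, so no second measurement of it was at hand. Rpl7a, a protein of the outer face of the large subunit, read 11.98 on WT, 12.07 on Fancd2KO, 11.71 on Foxo3aKO and 11.82 on DKO. Rpl15 read 11.83, 11.89, 11.56 and 11.74 in the same order of arrays. Both put Fancd2KO slightly above WT and Foxo3aKO lowest, with a Foxo3aKO difference of -0.27 each. Rpl8, which binds near the peptidyl transferase centre, read 11.37 on WT, 11.32 on Fancd2KO, 11.12 on Foxo3aKO and 11.30 on DKO, so only the Foxo3aKO array stood apart, at -0.25.

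Rpl13 gave the same side in every bright probe set, though with different sizes. Its member probe set read 12.48 on WT, 12.58 on Fancd2KO, 12.32 on Foxo3aKO and 12.38 on DKO, a Foxo3aKO difference of -0.17. A second probe set of Rpl13 alone gave -0.41 and a bright one shared with the pseudogene Rpl13-ps6 gave -0.66. In each of these 3 the Fancd2KO array was the highest and Foxo3aKO the lowest. Dim probe sets that list Rpl13 with other symbols gave -0.31 and 1.08 on Foxo3aKO.

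Rpl3 was the highest of the 5 large subunit genes above WT on Foxo3aKO, the others being Rpl39, Rpl17, Rpl4 and Rpl34. Rpl3, which lies close to the peptidyl transferase centre, read 10.44 on WT, 10.98 on Fancd2KO, 10.97 on Foxo3aKO and 10.80 on DKO. WT was the lowest array, and Fancd2KO and Foxo3aKO were each 0.53 above it, or 44.7% and 44.5% in linear signal. A second probe set, averaging 9.63, gave 0.64, 0.44 and 0.11 for Fancd2KO, Foxo3aKO and DKO. Another, averaging 5.91, gave -0.78, -0.91 and -0.13. The probe sets of Rpl3 thus disagreed in sign, and which transcripts each one reads was not determined. Rpl4, which lines the exit tunnel of the nascent chain, was the other bright large subunit gene above WT on the Foxo3aKO array, at 0.09, and its second probe set gave -0.09.

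The stalk, through which the large subunit recruits elongation factors, is built from Rplp0, Rplp1 and Rplp2. Rplp1 read 12.73 on WT, 12.69 on Fancd2KO, 12.41 on Foxo3aKO and 12.61 on DKO, a Foxo3aKO difference of -0.32. Rplp2, with a dim probe set, read 5.54, 6.11, 4.97 and 5.44, so its Fancd2KO and Foxo3aKO arrays lay 1.14 apart. A brighter probe set that lists Rplp2 with Snora52, averaging 9.88, gave -0.39 for Fancd2KO, -0.97 for Foxo3aKO and -0.12 for DKO. Both put Foxo3aKO lowest, and they take opposite sides of WT on Fancd2KO. Rplp0 read 9.96 on WT, 9.67 on Fancd2KO, 9.93 on Foxo3aKO and 10.60 on DKO. The DKO array was the highest, 0.63 above WT, while Fancd2KO was 0.29 below it. A second probe set of Rplp0, averaging 8.13, gave 0.39, 0.31 and -0.11 for Fancd2KO, Foxo3aKO and DKO, which is opposite in sign to the member's probe set on every one of them.

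**Figure D2:**
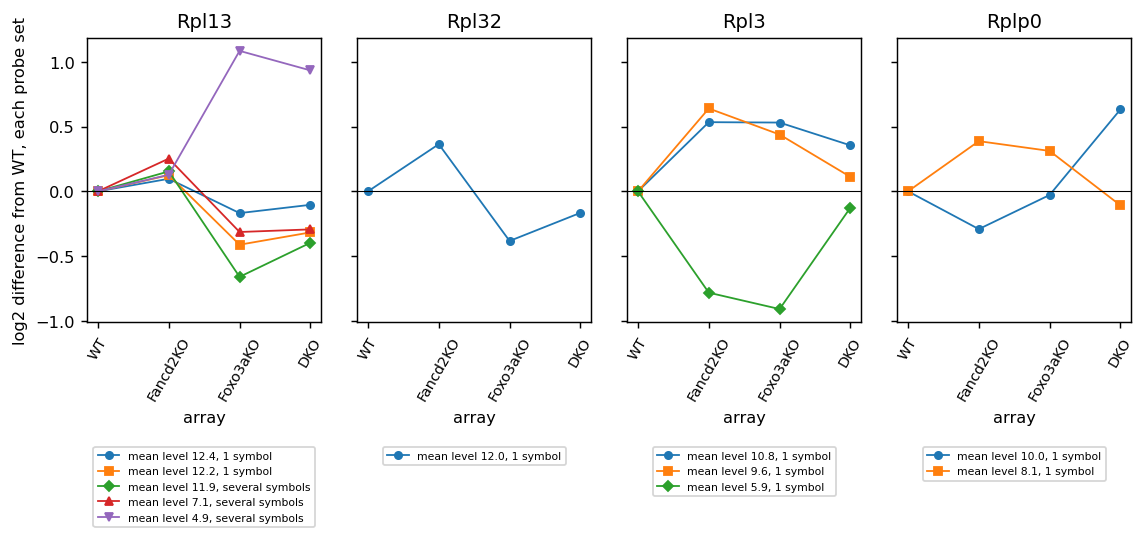
Log2 difference from the WT array for every listed probe set of Rpl13, Rpl32, Rpl3 and Rplp0 on the 4 arrays, 1 line per probe set with its mean level in the legend. The 3 bright probe sets of Rpl13 all lie below 0 on Foxo3aKO, at -0.17, -0.41 and -0.66, whereas the probe sets of Rpl3 and of Rplp0 take opposite sides of 0.

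Probe sets of the same gene give a measure of the part of technical error that differs between probe sets. Rpl23a and Rps19 were left out here, since their probe sets lay within 0.01 of each other. Over 9 other ribosomal protein genes with at least 2 bright probe sets of their own, the brightest 2 disagreed about the difference from WT. The SD of this disagreement was 0.05 for Fancd2KO, 0.15 for Foxo3aKO and 0.12 for DKO. Pairs that track each other closely stayed in, such as Rpl7a at -0.266 and -0.264 on Foxo3aKO, and can make this SD too small. Over 527 genes of any kind with 2 probe sets above the floor, the SD was 0.46, 0.44 and 0.48. The lowest bright genes on Foxo3aKO, Rpl32, Rplp1, Rpl7a and Rpl15, had differences larger in size than the SD for bright probe sets. They were picked by that difference, so this says nothing more about them. Other bright genes also exceeded it, among them Rps24, Rpl8 and, on the higher side, Rpl3. The median of the bright genes was smaller in size than this SD. Error common to a whole array cancels between probe sets, so this SD cannot gauge whether 2 arrays differ. This error also does not hold the variation between mice or between sorts.

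The dim members varied more between arrays. On Foxo3aKO 18 of 23 were lower than WT, with a median of -0.23, and Foxo3aKO was the lowest array for 17 of the 23. Rps7, which helps to mature the small subunit's RNA and binds Mdm2, read 6.86 on WT, 6.83 on Fancd2KO, 6.24 on Foxo3aKO and 6.98 on DKO. Rps14, named for its part in the anaemia of the 5q- syndrome, read 6.52, 6.68, 6.13 and 6.85. In both genes Foxo3aKO was lowest and DKO highest. Rps15 read 4.79 on WT, 5.21 on Fancd2KO, 4.23 on Foxo3aKO and 5.49 on DKO, and its gap between DKO and Foxo3aKO was 1.26. All its values were under the floor. Rps16 read 5.52, 5.42, 4.92 and 5.27, with Foxo3aKO lowest at -0.59, and its bright probe set shared with other symbols gave -0.11.

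The GC-rich background of the arrays, as in Rps7 and Rps14, was lowest on Foxo3aKO and highest on DKO. Probe sets that match no mouse gene and hold 22 to 25 G or C bases read a median of 6.65 on WT, 6.58 on Fancd2KO, 6.15 on Foxo3aKO and 6.85 on DKO. That is -0.50 for Foxo3aKO and 0.20 for DKO, at a level close to that of Rps7 and Rps14. Background probe sets with 3 to 7 G or C bases had a median within 0.07 of WT on every array. Over the 23 dim members the median level was 6.52 on WT, 6.68 on Fancd2KO, 6.24 on Foxo3aKO and 6.64 on DKO. As a set they thus shared the lowest array with this background but not the highest. The part of this background in the dim members was not tested.

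**Figure D3:**
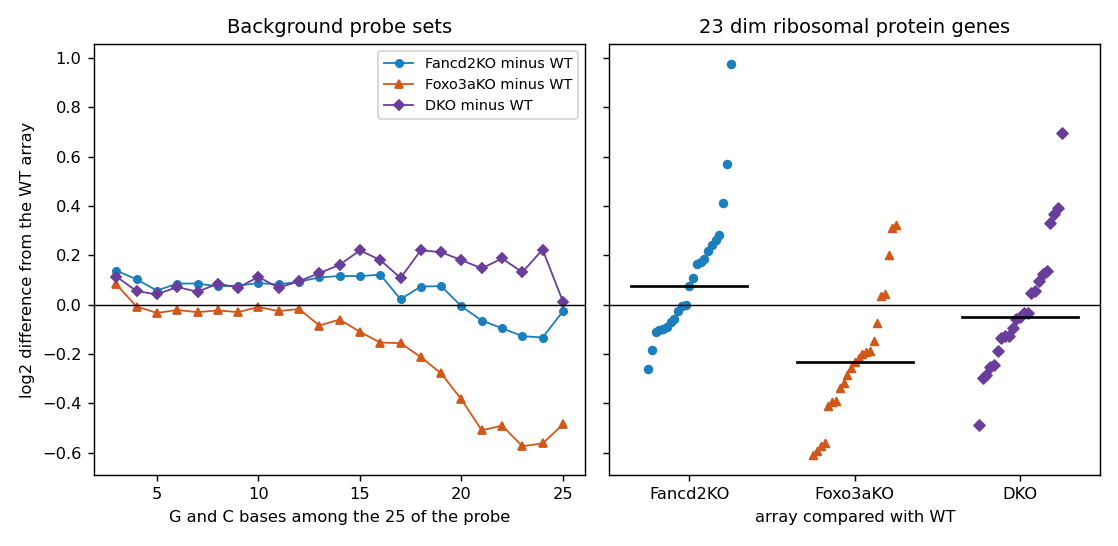
Left, log2 difference from the WT array of background probe sets against the number of G and C bases in the probe, 1 line per knockout array. Right, the same difference for the 23 dim ribosomal protein genes, 1 point per gene in rank order with the median as a bar. GC-rich background was 0.50 lower on Foxo3aKO than on WT, and the dim genes had a median of -0.23 there.

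Some dim members lay on the other side. Rps25, which contacts viral and cellular internal ribosome entry sites, read 9.18 on WT, 9.37 on Fancd2KO, 9.51 on Foxo3aKO and 9.32 on DKO, with a Foxo3aKO difference of 0.32. Rpl39, a small protein of the exit tunnel, read 5.32, 5.54, 5.63 and 5.27, so the single knockouts were higher than both WT and DKO. A brighter probe set that lists Rpl39 with other symbols, averaging 6.92, gave -0.03, -0.04 and -0.05 for Fancd2KO, Foxo3aKO and DKO. The higher values were not seen there. Rpl17, also at the tunnel, read 7.61 on WT, 7.50 on Fancd2KO, 7.81 on Foxo3aKO and 7.98 on DKO. Rpl9 was lowest on DKO instead, at 9.13 on WT, 8.86 on Fancd2KO, 8.73 on Foxo3aKO and 8.64 on DKO. Its second probe set, averaging 5.14, gave 0.43, -0.28 and -0.07 for the knockouts.

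Further dim genes followed one or another of these orders. Rps23, which holds the decoding centre of the small subunit, read 7.03 on WT, 7.11 on Fancd2KO, 6.62 on Foxo3aKO and 6.78 on DKO, so both arrays labelled for Foxo3a loss were below the others. Rps27 read 6.58, 6.40, 6.24 and 6.28, with WT the highest and every knockout lower. Rpl26, which also binds the p53 mRNA, read 6.25 on WT and Fancd2KO, 6.10 on Foxo3aKO and 6.64 on DKO. Its DKO array alone stood apart, at 0.39 above WT, while a bright probe set shared with another symbol differed there by 0.05. Rpl30 read 5.47 on WT, 5.73 on Fancd2KO, 5.28 on Foxo3aKO and 5.34 on DKO, with Fancd2KO the highest, and Rps20 differed by 0.16 in all, from 7.51 on DKO to 7.67 on Foxo3aKO.

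**Figure D4:**
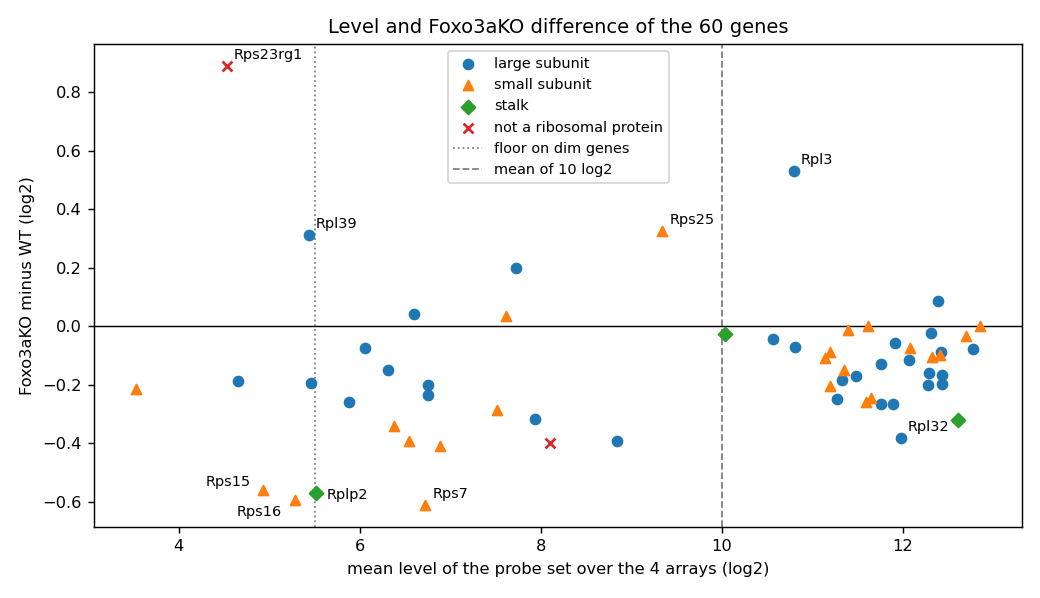
Log2 difference of Foxo3aKO from WT against the mean level of the probe set over the 4 arrays for the 60 members, by subunit. The dotted line is the floor of 5.51 and the dashed line the mean of 10 log2 that separates bright from dim; 51 of 60 points lie below 0, and the largest distances from 0 are on the dim side.

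The members lay on both sides of WT on the Fancd2KO array. Of the 60 members 34 were lower and 26 higher, where 51.9% of genes were lower, and the median was -0.01 both for the members and for all genes. With quantile normalisation the split turned to 24 lower and 36 higher, and with centring or cyclic loess 30 were lower, so no side is claimed. None reached 2-fold, which 3.03% of genes did, and 6 were higher by 0.32 log2 or more and 0 as much lower, where 14.7% and 17% of genes were. The subunits differed in their counts: 16 of 23 small subunit genes were lower, at a median of -0.07, and 17 of 35 large subunit genes, at 0.01. Under quantile normalisation these counts were 14 and 9, with medians of -0.02 and 0.06. The difference between the subunits was not tested.

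The highest Fancd2KO difference belonged to Rpl34. Its dim probe set read 6.33 on WT, 7.31 on Fancd2KO, 6.38 on Foxo3aKO and 6.38 on DKO, a difference of 0.98 on the Fancd2KO array with the other arrays level. A bright probe set that lists Rpl34 with another symbol read 12.68, 12.74, 12.60 and 12.70, a difference of 0.06, so the higher value was not seen there. Rplp2, Rpl3 and Rps15 followed at 0.57, 0.53 and 0.41, and Rpl32 at 0.36, where the brighter shared probe set of Rplp2 was at -0.39. On the lower side stood Rplp0 at -0.29, Rpl9 at -0.26, and Rps3a1, Rps24 and Rps28 at -0.19 each. Rps28 read 12.16 on WT, 11.97 on Fancd2KO, 12.08 on Foxo3aKO and 12.11 on DKO, and the Fancd2KO array was the lowest.

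By the median of the 60 members the DKO array stood between the single knockouts, and its difference from WT depended on how the arrays were scaled. Of the 60 members 44 were lower than WT, where 53.4% of genes were lower, and the median was -0.07 against -0.03. Among the bright genes 30 of 35 were lower at a median of -0.10, where 63.9% of the 418 bright genes were lower at -0.06. This median of the bright members was close to the one on Foxo3aKO. With quantile normalisation 34 of 60 members and 20 of 35 bright members were lower, and with cyclic loess 35 and 20. The median of the bright members then came to -0.02 and -0.03. Rps23rg1 was the only member past 2-fold, which 3.09% of genes were, and it is not a ribosomal protein. Below WT by the most were Rpl9 at -0.49, Rps27 at -0.30, Rpl22 at -0.29 and Rps24 at -0.28. Rpl7, bright, read 10.91 on WT, 10.82 on Fancd2KO, 10.84 on Foxo3aKO and 10.67 on DKO, with DKO lowest. Rpl22, a dispensable protein with a role in lymphocyte development, read 8.04 on WT, 8.21 on Fancd2KO, 7.73 on Foxo3aKO and 7.76 on DKO, so the arrays labelled for Foxo3a loss lay together below the others.

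Loss of Foxo3a can be read in pairs of arrays that share none, as Foxo3aKO minus WT and as DKO minus Fancd2KO. In the second comparison 43 of 60 members were lower, where 52.5% of genes were, and the median was -0.07. With cyclic loess this became 32 of 60 at -0.01, and for the bright members 28 of 35, where 59.8% of bright genes were lower, became 17 of 35. As deposited, 36 of 60 members, 60%, were lower in both comparisons, and so were 29.4% of genes. Among the bright members 25 of 35 were lower in both, 71.4%, and 34.5% of bright genes were. Pearson's r between the comparisons was 0.30 over the 60 members, 0.11 over the 58 ribosomal proteins without Rps19bp1 and Rps23rg1, 0.23 over the 35 bright ones and -0.0031 over the 23 dim ones. Of these 2 genes, Rps23rg1, under the floor on every array, was high in both comparisons, at 0.89 and 0.84. Rps19bp1 took opposite sides, at -0.40 and 0.10, so the higher r over the 60 goes with Rps23rg1. Each r is a description across genes that share arrays and are not replicates. Rpl32, Rpl7a, Rpl14 and Rpl13 were among the bright genes lower in both, at -0.38 and -0.53 for Rpl32, at -0.27 and -0.25 for Rpl7a, at -0.17 and -0.20 for Rpl14 and at -0.17 and -0.20 for Rpl13.

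Loss of Fancd2 read on the Foxo3a-deficient background, as DKO minus Foxo3aKO, gave 44 of 60 members higher, where 54% of genes were, with a median of 0.06. Set beside Fancd2KO minus WT, 22 members were higher in both, 12 lower in both and 26 opposite, and r was 0.14 over the members and -0.08 over the bright ones. Rps15 at 1.26 was past 2-fold, which 3.36% of genes were. Rps7 at 0.73, Rps14 at 0.72 and Rplp0 at 0.66 came next. Rps15 was under the floor on every array, and Rps7 and Rps14 have dim probe sets. The GC-rich background differed here by 0.70, and its part in these values was not tested. For Rplp0 the second probe set gave -0.42.

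Between the single knockouts, 46 of 60 members were lower on Foxo3aKO than on Fancd2KO, where 56.2% of genes were, with a median of -0.15. Rplp2 at -1.14 was the only member past 2-fold, which 2.8% of genes were. Rpl32 at -0.75 had the largest gap among the bright genes, and its knockouts lay on opposite sides of WT. Over the 4 arrays, Foxo3aKO was the lowest for 37 of 60 members and for 31.3% of genes. For the bright small subunit genes, however, DKO was lowest in 7 of 13 and Foxo3aKO in 4, whereas for the bright large subunit genes Foxo3aKO was lowest in 15 of 22 and DKO in 4. Of the 418 bright genes, DKO was lowest in 30.6% and Foxo3aKO in 31.8%. The small subunit count depended on scaling. With cyclic loess DKO lay above Fancd2KO for Rps18, Rps3a1 and Rps9 and above Foxo3aKO for Rps24, Rps26 and Rps6. Of the 7 only Rps4x then kept DKO lowest.

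The sum of the single differences gave an additive expectation for the DKO array. The members lay below it in 23 of 60 cases, where 47.2% of genes did, and the median departure was 0.06, against 0.03 over all genes. Rplp0 departed most upward, by 0.95, since its single knockouts were at or below WT and DKO above it. Rps15, under the floor on every array, followed at 0.84 and Rps7, with a dim probe set, at 0.76. The GC-rich background departed by 0.77, and its part in these values was not tested. Rpl34 departed most downward, by -0.97, and Rpl3 by -0.71, Rpl34 being high on Fancd2KO alone and Rpl3 on both single knockouts. Departures by other probe sets were -0.81 for Rplp0, 0.04 for the bright shared one of Rpl34, and -0.97 and 1.56 for Rpl3.

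The genes altered in Diamond-Blackfan anaemia had 14 members, all of them lower on Foxo3aKO, at a median of -0.23, and 13 of 14 after quantile normalisation. Of all members 85% were lower there and of all genes 55.4%. Of the 14, 7 were bright, with a median of -0.12 and a range from -0.27 for Rpl15 to -0.01 for Rps26. Bright members beside Rps19, Rps24 and Rpl15 were Rpl27 at -0.09, Rpl35 at -0.12, Rps28 at -0.08 and Rps26 at -0.01. On Fancd2KO 10 of 14 were lower at -0.05, and 8 of 14 after quantile normalisation. On DKO 10 of 14 were lower at -0.04, and 7 of 14 after quantile normalisation or cyclic loess. The shares lower among all members were 56.7% on Fancd2KO and 73.3% on DKO, and among all genes 51.9% and 53.4%. Rpl5 and Rpl11 form with 5S RNA the particle that binds Mdm2 and so links ribosome assembly to p53, and both had dim probe sets. Rpl5 read 5.95 on WT, 5.85 on Fancd2KO, 5.69 on Foxo3aKO and 6.05 on DKO, and Rpl11 read 6.02, 6.30, 5.94 and 5.98. On every array both lay below the median of the GC-rich background, which ran from 6.15 on Foxo3aKO to 6.85 on DKO. The differences from WT ran from -0.26 for Rpl5 on Foxo3aKO to 0.28 for Rpl11 on Fancd2KO. A brighter probe set that lists Rpl5 with Rpl5-ps2, averaging 8.71, gave -0.58, -0.66 and -0.12 for Fancd2KO, Foxo3aKO and DKO.

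The Foxo3aKO difference was also set against the start sites shown above. The 21 genes with a pyrimidine run had a median of -0.19 and the 24 without one a median of -0.15. Among bright genes the medians were -0.11 for 14 with the run and -0.09 for 13 without. Rpl15 and Rpl38 both begin with such a run, and their Foxo3aKO differences were -0.27 and -0.02. Rpl38, which favours translation of Hox mRNAs, read 12.32 on WT, 12.32 on Fancd2KO, 12.29 on Foxo3aKO and 12.31 on DKO, and no array stood apart.

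The 2 members outside the ribosome were read separately. Rps19bp1, the Aros protein that binds Rps19 and Sirt1, read 8.19 on WT, 8.17 on Fancd2KO, 7.79 on Foxo3aKO and 8.26 on DKO, with Foxo3aKO 0.40 below WT and the others close together. Rps23rg1, a mouse gene that arose by retroposition from Rps23, read 3.90, 4.29, 4.79 and 5.13. Each knockout array was above WT, and all of the values were under the floor. Its DKO difference from WT was 1.23.

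Other genes that make or serve ribosomes were measured from lists of their own. For comparison, 55.4% of the 12041 genes above the floor were lower than WT on Foxo3aKO and 51.9% on Fancd2KO. Of 69 ribosome biogenesis factors, which assemble the subunits in the nucleolus, 54 were lower on Foxo3aKO at a median of -0.23, and 49 were higher on Fancd2KO at a median of 0.15. Gar1, a protein of the particles that modify ribosomal RNA, was lowest on Foxo3aKO at 6.37, against 7.34 on WT, 7.07 on Fancd2KO and 6.67 on DKO. Ppan, a factor of large subunit assembly, differed from its list, at 8.10 on WT, 9.80 on Fancd2KO, 9.24 on Foxo3aKO and 9.01 on DKO. Of 15 genes of RNA polymerase I and its factors, which transcribe ribosomal RNA, 13 were lower on Foxo3aKO at a median of -0.37. Polr1b, its second largest subunit, read 7.20 on WT, 6.92 on Fancd2KO, 6.51 on Foxo3aKO and 6.55 on DKO. These lists also hold many genes in the range of signal where the GC-rich background differed, and that part was not tested.

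The counts that follow are to be read beside the 55.4% of genes above the floor that were lower on Foxo3aKO. Of the 71 mitochondrial ribosomal protein genes, 54 were lower on Foxo3aKO at a median of -0.21, close to the value of the dim cytosolic genes. Of 31 initiation factors 21 were lower, at -0.18, and of 11 elongation and release factors 8 were lower, at -0.15. Of 18 other genes known for a TOP motif 12 were lower, at -0.10, led by Eef1d at -0.36 and Npm1 at -0.34. Fau, whose product is fused to a ribosomal protein of the small subunit and which the rule on symbols leaves out, read 12.26 on WT, 12.17 on Fancd2KO, 12.16 on Foxo3aKO and 12.20 on DKO. Among 21 regulators of ribosomal protein synthesis 16 were lower, at -0.16. Myc, an activator of ribosome genes, read 9.34, 9.27, 8.85 and 9.39, and Foxo3aKO was the lowest array. Its relative Mycn read 6.10, 5.62, 5.34 and 6.51. The Myc antagonists took opposite sides on Foxo3aKO, with Mxd1 at 9.40, 9.37, 10.26 and 8.80 and Mxd4 at 8.38, 7.86, 7.69 and 8.33. Larp1, which binds TOP mRNAs, read 9.56, 9.71, 9.22 and 9.58.

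**Figure D5:**
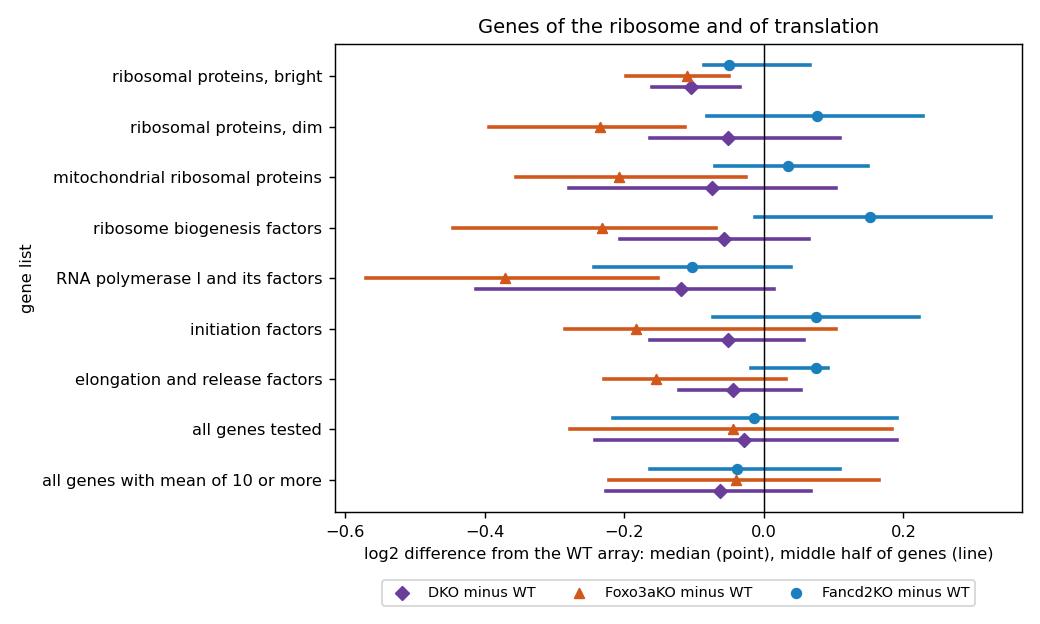
Median (point) and middle 50% of genes (line) of the log2 difference of each knockout array from WT for lists of ribosome and translation genes, beside all genes above the floor and all genes with a mean of at least 10 log2. Foxo3aKO medians lie between -0.11 and -0.37 for the lists shown and at -0.04 for both sets of all genes.

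Other features also differed between the arrays, not all in the order of the ribosomal protein genes. On Foxo3aKO 13 of 13 monocyte and macrophage markers were higher than WT, at a median of 0.53, and 14 of 15 neutrophil markers, at 0.40, while 9 of 10 erythroid markers were lower, at -0.60. None of these markers was under the floor on every array. In linear signal the erythroid markers summed to 3624.5 on WT, 2719.8 on Fancd2KO, 2720.6 on Foxo3aKO and 3997.5 on DKO, so both single knockouts were lower. On Foxo3aKO 55.4% of all genes above the floor were lower than WT. Stem cell markers were lower in 12 of 16, with summed linear signals of 8782 on WT, 7541 on Fancd2KO, 6542 on Foxo3aKO and 7283 on DKO. Megakaryocyte markers were lower in 6 of 8, with sums of 1309, 1287, 784 and 954. Mast cell, basophil and eosinophil markers summed to 8959, 3201, 6117 and 2636, so the arrays labelled for Fancd2 loss were the lowest, with 10 of 10 below WT on each and only Fcer1a under the floor throughout. The summed linear signal of the monocyte markers was 6412 on WT, 5093 on Fancd2KO, 8841 on Foxo3aKO and 11370 on DKO. All 21 immediate early genes, known to respond to handling of cells, were higher than WT on Fancd2KO and on Foxo3aKO, at medians of 1.11 and 1.07, and 11 of 21 on DKO, at 0.02. Their part in the ribosomal protein values was not tested. In sorted cells measured in bulk, fewer cells of a type and less RNA per cell cannot be told apart. Kit, which the gate selects for, was at 10.41 to 10.67 on the arrays, and Cd34 mRNA was at 9.67 to 10.79, in cells sorted as negative for the protein.

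The targeted genes gave an unequal check of the labels. Fancd2 read 6.56 on WT, 6.08 on Fancd2KO, 6.67 on Foxo3aKO and 5.84 on DKO, lower on both arrays labelled for its loss. Foxo3 read 6.62, 6.72, 6.64 and 6.51, so its signal did not separate the arrays labelled for its loss. Which exons the alleles lack and which the probe set reads are not given in the sources used here, so the Foxo3 value checks nothing, and every statement on Foxo3aKO is on the array so labelled.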

How the data were processed

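Total RNA from sorted marrow cells was measured on 4 arrays, 1 per genotype, and groups were taken from the labels. The deposited table held log2 expression values. The submitters' processing notes name Affymetrix Expression Console as the authors' tool, and its version, its way of summarising and normalising probes and any filtering step are not given in the sources used here. All 4 columns were used as deposited. Of 41345 probe sets, 23521 had 1 gene symbol in the platform annotation, 1814 had several and 16010 had none, and all 60 members matched RefSeq by Entrez identifier and symbol. Depth has no meaning for arrays, and their number limits the precision.

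Levels were subtracted on the log2 scale. A gene was counted as tested when its highest value reached the floor of 5.51 log2, which 12041 genes did. Members were described whether or not they passed it. Counts of genes past 2-fold, 1.5-fold and 0.32 log2 were made with Python 3.11.15, numpy 2.4.6 and pandas 2.3.3, and the scripts were tested on simulated data. Alternatives were quantile and cyclic loess normalisation with limma 3.58.1 in R 4.3.3, centring, other floors, other choices of probe set and other choices of member.

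The members and lists were chosen with earlier results of these data known. The split at 10 log2 was chosen after seeing the data. Every member could be named. Full values were given for members past 2-fold, the 8 highest and 8 lowest of each knockout against WT, and genes picked by role, with shorter mention where a member was close to others. From other lists at most 4 genes per list and comparison were named by size of difference, and Myc, Larp1, Fau, Kit and Cd34 were named for their role after their values were seen. Sequences are from RefSeq's promoter table for GRCm38.p6, which held no entry for 13 ribosomal protein genes. No coordinates of probe sets are given, since no source used here names their build.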

Additional observations from a re-analysis of the deposited data

Results flagged for a closer look

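Each loss has a reading on 2 backgrounds, and some members lay at least 1.1-fold from the comparison array on opposite sides in the 2 readings. None of these differences between backgrounds was tested, since each reading rests on a pair of single arrays.

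For loss of Fancd2, the first value below is Fancd2KO minus WT and the other is DKO minus Foxo3aKO. Rpl3 was at 0.53 and -0.18. Rplp0 was at -0.29 and 0.66, and its second probe set ran in the opposite sense. Rps25 was at 0.18 and -0.19, and Rpl39 at 0.22 and -0.36. The probe set of Rpl39 is dim, with a mean of 5.44, and a brighter one shared with other symbols gave -0.03 and -0.01.

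For loss of Foxo3a, the first value is Foxo3aKO minus WT and the other is DKO minus Fancd2KO. Rpl3 was at 0.53 and -0.18, and Rpl39 at 0.31 and -0.27. The brighter shared probe set of Rpl39 gave -0.04 and -0.02, so its opposite sides rest on the dim one alone. Rps7 was at -0.61 and 0.15, Rps15 at -0.56 and 0.28, Rps14 at -0.39 and 0.17, Rpl5 at -0.26 and 0.20, and Rpl26 at -0.15 and 0.39. These last 5 have dim probe sets, with means from 4.93 to 6.73, and the GC-rich background probe sets moved the same way, by -0.50 and 0.27. The part of the background in these values was not tested.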

How the results depend on the processing

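No paired analysis was possible because each genotype had 1 array, and for the same reason no replicate could be left out. Of the medians, shares and counts under the alternatives, 201 stayed close to the value reported, 44 moved and 0 reversed a median of at least 0.05 in size. The Foxo3aKO median against WT ranged from -0.23, with each array centred, to -0.11, in the brightest 10% of genes and in the bright genes alone, a set chosen after seeing the data. The share of members lower there ranged from 76.7% to 91.4%. The Foxo3aKO median against Fancd2KO went to -0.22 with centring and to -0.0926 in those brighter sets. With cyclic loess the DKO median was -0.0090 against Fancd2KO, 0.12 against Foxo3aKO and 0.11 against the additive expectation. In members with 1 probe set, DKO against Foxo3aKO had a median of 0.14 with 11.4% lower.

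Counts past the fold moved with the threshold. At 1.5-fold they were 1 for Fancd2KO, 3 for Foxo3aKO and 3 for DKO against WT, 4 for DKO against Fancd2KO, 4 for DKO against Foxo3aKO, 4 for Foxo3aKO against Fancd2KO and 5 for the additive expectation. At 0.32 log2 they were 6, 13, 8, 10, 11, 17 and 12 in the same order. At 2-fold, the dimmest probe set gave 1 for Foxo3aKO against WT, 2 for DKO against Foxo3aKO, 3 for Foxo3aKO against Fancd2KO and 2 for the additive expectation. Probe sets with several symbols gave 1, 3, 0 and 5 for these. Quantile normalisation gave 2, centring 3 and cyclic loess 2 for Foxo3aKO against Fancd2KO, and cyclic loess 1 for the additive expectation. The count was 0 for the 3 comparisons with 1 such member (DKO against WT, DKO against Foxo3aKO and Foxo3aKO against Fancd2KO) in the brightest 10% and in the bright genes, and 0 for DKO against WT without the 2 genes that are not ribosomal proteins. The cause was not tested beyond the smaller sets these alternatives use. Single arrays, near-identical copies and the unknown normalisation limit all values.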
